A study of Homo sapiens with 6 samples.

Results

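The estrogen receptor program of luminal breast tumors was examined through 10 genes of the PAM50 subtype signature, namely ESR1, PGR, FOXA1, NAT1, MLPH, MAPT, SLC39A6, GPR160, BAG1 and BLVRA. They were chosen by name and all 10 are among the 758 genes of the table. The samples are JIMT-1 cells, an established human line from a HER2+ breast carcinoma, known for its poor response to trastuzumab. RNA was collected after 24 h from 3 samples given PBS (CTL) and 3 samples given 250 µM aCT1, a peptide modeled on the C-terminal tail of connexin 43. No other agent or genetic change is named in the labels for either group. The labels do not state whether the 3 samples of a group were separate cultures, so p-values measure the spread between these samples, which may be technical, and they describe 1 cell line. The comparison asks whether breast cancer genes differed after 24 h of aCT1.

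In the normal breast, luminal cells line the duct and a fraction of them carry the estrogen receptor. When estrogen binds, the receptor, encoded by ESR1, attaches to DNA at estrogen response elements, and the forkhead factor FOXA1 opens chromatin so that it can do so. The progesterone receptor gene PGR is a classical target of this pathway and is measured with ESR1 in the clinic. Other genes of the set follow ESR1 across tumors, including the zinc importer SLC39A6, also called LIV-1, the arylamine N-acetyltransferase NAT1 and the microtubule-binding protein tau, MAPT. HER2-driven tumors may lack estrogen receptor activity.

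Counts on the nCounter platform are of single barcodes, 1 probe pair for each gene, so a level is a normalized count for a probe and carries no transcript length. Probes differ in how well they capture RNA, and the order of genes by level is therefore a description. Total normalized counts were 1453026 to 1476821 in the CTL samples and 1456041 to 1484226 in the aCT1 samples. Those totals follow scaling to housekeeping genes and do not measure depth. As counts of barcodes, totals were 1445341 to 1494919 in CTL and 1437572 to 1489467 in aCT1, so depth differed little between groups. In limma over the 758 genes, 0 genes had an adjusted p under 0.05 (0% of genes) and 71 had an unadjusted p under 0.05 (9.37%), 49 higher and 22 lower in aCT1. With each sample centred on its median those calls were 4 higher and 89 lower, with quantile normalization 41 and 42, and without aCT1 replicate 2 they were 30 and 28. Median centring lowered the log2 fold change of every gene by the same amount, and moved the median over all genes from 0.018 to -0.080. A linear model without moderation also gave 0 genes after adjustment, with 63 at an unadjusted p under 0.05.

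Promoter sequences are shown for ESR1, which encodes the receptor, and for SLC39A6 and GPR160, the members with the smallest unadjusted p. Each is the 250 bases before the gene's start in RefSeq on GRCh38.p14, written 5′ to 3′ on the gene's strand, and capitals mark GGTCA or its reverse complement TGACC, the core letters of an estrogen response element. ESR1 lies at chr6:151656422-151656671 on the + strand, SLC39A6 at chr18:36129341-36129590 on the - strand and GPR160 at chr3:170037745-170037994 on the + strand.
ESR1: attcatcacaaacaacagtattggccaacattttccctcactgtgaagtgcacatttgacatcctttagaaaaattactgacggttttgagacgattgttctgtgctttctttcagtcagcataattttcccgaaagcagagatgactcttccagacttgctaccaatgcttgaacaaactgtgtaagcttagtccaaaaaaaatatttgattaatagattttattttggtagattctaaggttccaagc
SLC39A6: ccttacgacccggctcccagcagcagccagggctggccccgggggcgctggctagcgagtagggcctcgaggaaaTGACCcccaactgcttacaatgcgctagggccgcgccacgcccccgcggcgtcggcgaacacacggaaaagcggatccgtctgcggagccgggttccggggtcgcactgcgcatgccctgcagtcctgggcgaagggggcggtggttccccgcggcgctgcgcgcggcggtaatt
GPR160: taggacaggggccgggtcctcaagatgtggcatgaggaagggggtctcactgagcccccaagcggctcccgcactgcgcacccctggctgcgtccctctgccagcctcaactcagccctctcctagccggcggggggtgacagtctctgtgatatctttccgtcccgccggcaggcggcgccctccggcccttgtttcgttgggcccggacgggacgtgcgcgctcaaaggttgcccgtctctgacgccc

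The SLC39A6 promoter held 1 such core, whose first base lay 175 bases before the start. Among the 8 members with a promoter in the RefSeq table, PGR and SLC39A6 held the core on either strand, and 33.1% of all 27305 promoters held one. The full element GGTCANNNTGACC, which contains the core on both strands, was found in 0 of the 8 and in 0.0439% of all promoters. The forkhead motif TGTTTAC was found in 0 of the 8 and in 2.98% of all promoters. The GC content of the printed ESR1 window was 36% and that of SLC39A6 71.6%, where the median of all promoters was 58%. These matches describe letters in 1 window for each gene, and ESR1 is known to use several promoters.

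JIMT-1 cells carried the luminal genes at very unequal levels, and the hormone receptor genes were among the lower ones. Over the 6 samples, the mean level was 2115 normalized counts for BLVRA, 1592 for BAG1, 1026 for SLC39A6, 1001 for MLPH and 625 for GPR160. It was 240 normalized counts for NAT1, 124 for ESR1 and 120 for FOXA1. PGR at 21.4 and MAPT at 19.2 normalized counts closed the order. The ranges over samples of SLC39A6 and MLPH overlapped, as did those of ESR1 and FOXA1 and those of PGR and MAPT, so these neighbors were not separated by their spread.

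**Figure D1:**
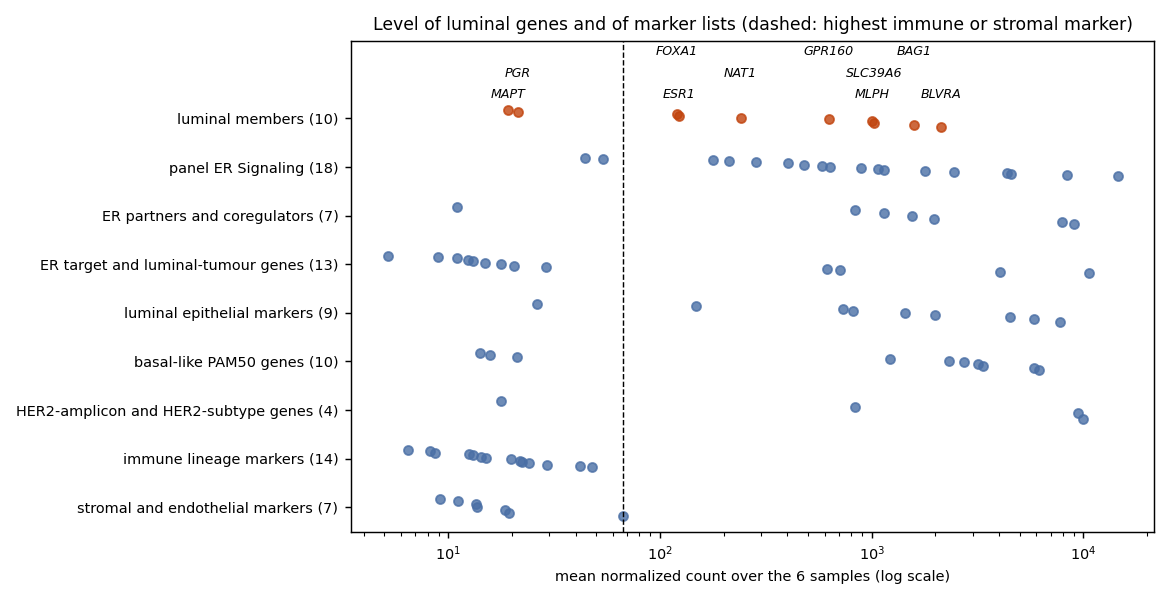
Mean normalized count over the 6 samples on a log axis for the 10 luminal genes (red) and for marker lists (blue), with the number of genes measured in each list in parentheses. The dashed line marks PECAM1 at 67.1 normalized counts, the highest immune or stromal marker, and 8 luminal genes lie to its right while PGR and MAPT lie to its left.

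To place the low members, 14 immune lineage markers and 7 stromal and endothelial markers were used, chosen as genes that a pure epithelial line should lack. Whether JIMT-1 cells express any of them was not tested. Their means ran from 6.46 to 67.1 normalized counts, with a median of 15, and the highest were PECAM1, an endothelial adhesion molecule, and the macrophage marker CD68 at 47.6. Of the 21 markers, 7 were at or above PGR and 9 were at or above MAPT. PGR and MAPT thus lay within the range of these markers, while ESR1 and FOXA1 were above each of them, as a description across probes that may differ in capture. The summed level of the immune list was 254 to 317 normalized counts in CTL and 250 to 335 in aCT1, and that of the stromal list was 149 to 168 and 140 to 154. Single values of the markers ran from 1.99 to 76.3 normalized counts, and a value of 0 could not occur in counts that were deposited as log2 too. At an unadjusted p under 0.05, 6.46% of all genes were higher and 2.9% lower in aCT1. In the immune list 2 of 14 genes were higher and 1 lower at that p, all of them at few counts. The smallest p belonged to the mast cell protease CPA3, with 4.97 normalized counts in CTL and 11.4 in aCT1, and to CD163, a macrophage receptor, with 9.58 and 3.35, and the adjusted p from limma was 0.247 and 0.440. In the stromal list 0 of 7 genes were below that p in limma, the smallest being those of the receptor KDR (log2 fold change 0.82, adjusted p 0.526) and PECAM1 (-0.22, adjusted p 0.729).

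The epithelial identity of the samples was clear, and both luminal and basal-like genes were present. The cell adhesion gene CDH1 (E-cadherin) had a mean of 5852 normalized counts and KRT7, a keratin of simple epithelia, 7732, the highest of the 9 luminal epithelial markers measured. The lowest of them was the tight junction gene CLDN3, at 26.3. GATA3, a transcription factor of the luminal lineage, stood at 9066 normalized counts, while SPDEF, an epithelial ETS factor, had 10.98. Among the genes known as targets of the estrogen receptor or as luminal tumor genes, CCND1 (cyclin D1) was the highest at 10620 and TFF3, a secreted trefoil peptide, the lowest at 5.17. The trefoil gene TFF1 had 12.4 and the survival gene BCL2 20.4 normalized counts. Among the basal-like genes, the keratin KRT5 stood at 3347 normalized counts and the forkhead factor FOXC1 at 1214. The median level of the 10 basal-like genes was 2510 normalized counts. It was above the medians of the luminal epithelial markers and of the members, as a description across probes that may differ in capture. SFRP1 was the highest of the 10 basal-like genes and the basal keratin KRT17 the lowest, at 14.2, within the range of the immune and stromal markers, and 7 of the 10 had a mean of at least 50. Of the HER2 genes, ERBB2 had 9398 and its neighbor GRB7 9980 normalized counts.

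With aCT1, none of the 10 genes passed the adjusted threshold in limma. SLC39A6, lower in aCT1, was the 1 member of 10 below an unadjusted p of 0.05. Over the table, 9.37% of genes were below it, 6.46% higher and 2.9% lower in aCT1, so the share among the members was near that of all genes. In direction, 8 of the 10 members were higher and 2 lower in aCT1, and their median log2 fold change was 0.034, where all 758 genes had 446 higher, 312 lower and a median of 0.018. This split depended on the scaling, since with each sample centred on its median 2 members were higher and 8 lower. That centring lowered the value of every gene by the same amount, so the change of direction was not particular to the members. The median absolute log2 fold change was 0.068 for the members and 0.077 for all genes. Those are changes of a few percent for most genes. The groups did not overlap for 1 of the 10 members, SLC39A6 (lower in aCT1), where 14.2% of all genes did not overlap, 9.37% higher and 4.88% lower.

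**Figure D2:**
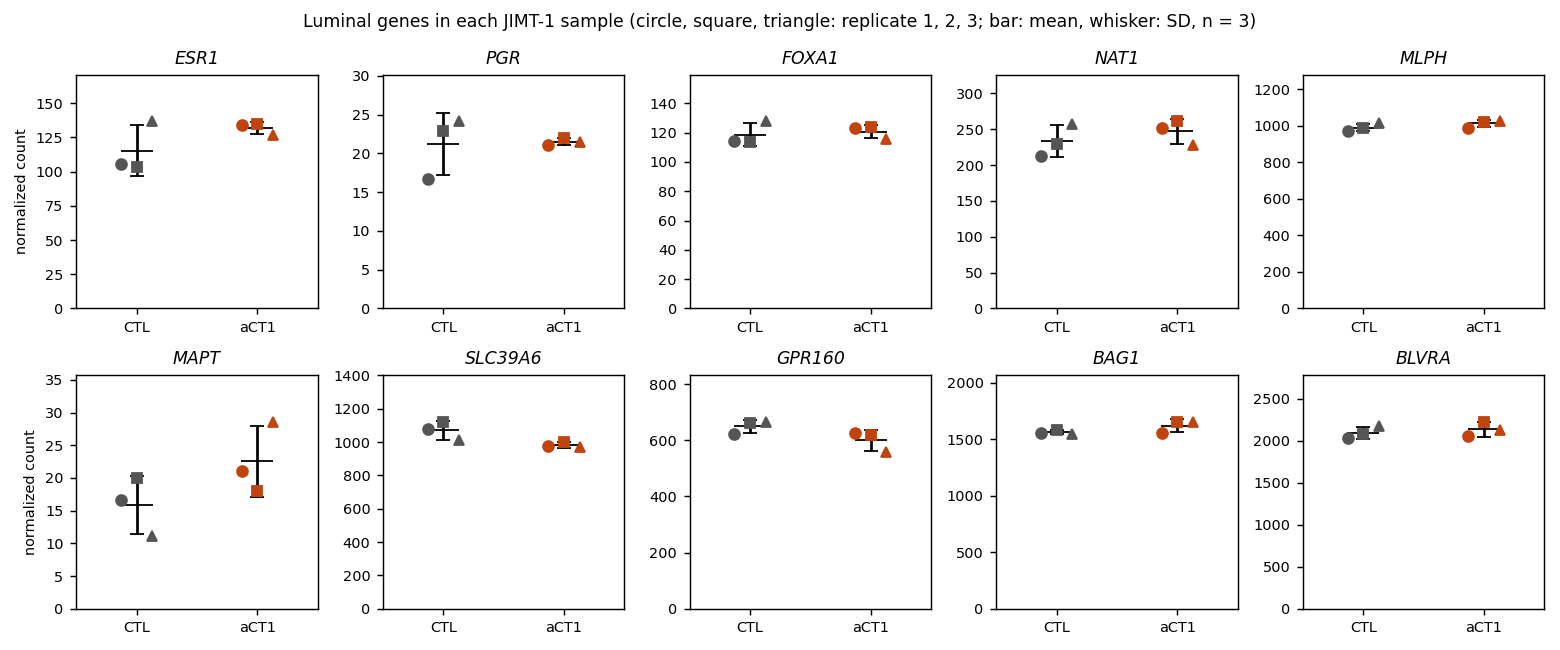
Normalized count of each luminal gene in every sample, with CTL in grey and aCT1 in red, marker shape giving the replicate number, and bars the mean with SD (n = 3). SLC39A6 is the gene whose 3 aCT1 values lie under all 3 CTL values, while CTL replicate 3 is the highest CTL sample in 7 of the 10 panels. The share of all genes with that order was not counted.

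ESR1 had 106, 104 and 137 normalized counts in CTL replicates 1, 2 and 3, and 134, 135 and 127 in aCT1 replicates 1, 2 and 3. The aCT1 samples were close together, but CTL replicate 3 was above all of them, so the groups overlapped. The mean level was 115 ± 18.5 in CTL and 132 ± 4.4 in aCT1 (SD, n = 3), which is 0.20 as a log2 fold change (standard error, SE, 0.13, adjusted p from limma 0.675, unadjusted p = 0.131). The 95% interval of the fold was 0.953 to 1.39. Without CTL replicate 3 the log2 fold change was 0.33, with a limma adjusted p of 0.304 and an unadjusted p of 0.0167. It was smaller without CTL replicate 2, at 0.13 (limma unadjusted p = 0.381), with median centring, at 0.11 (0.416), and with quantile normalization, at 0.12 (0.246). For ESR1, counting alone gives an SE of 0.11, most of the error of the fit.

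PGR had 16.6, 22.9 and 24.1 normalized counts in CTL and 21.0, 21.9 and 21.5 in aCT1. All aCT1 values lay inside the range of CTL. Its log2 fold change was 0.035 (SE 0.26, adjusted p from limma 0.986), and the interval of the fold ran from 0.695 to 1.51. At this level the SE from counting alone is 0.26, and the values did not tell folds within that interval apart. FOXA1, the pioneer factor, had 114, 114 and 128 normalized counts in CTL and 123, 124 and 115 in aCT1. The groups overlapped throughout, with CTL replicate 3 again the highest sample, and the log2 fold change was 0.027 (SE 0.11, adjusted p from limma 0.973). A fold outside 0.864 to 1.20 lay outside the interval for FOXA1.

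SLC39A6 had 1075, 1123 and 1011 normalized counts in CTL and 976, 1001 and 971 in aCT1. The 3 aCT1 values were under all 3 CTL values, though aCT1 replicate 2, at 1001, was close to CTL replicate 3, at 1011. The mean was 1070 ± 55.9 in CTL and 983 ± 16.4 in aCT1 (SD, n = 3), and the log2 fold change was -0.12 (SE 0.046, adjusted p from limma 0.334, unadjusted p = 0.0195). An exact permutation test of 3 samples against 3 cannot give a two-sided p under 0.1. The unadjusted p was over 0.05 in 6 of the 16 alternatives run, including no variance trend (0.0618) and no moderation (0.0574), and reached 0.104 without CTL replicate 2, where the log2 fold change was -0.086. It was also over 0.05 without CTL replicate 1 (0.0532), without aCT1 replicate 1 (0.0566) and without aCT1 replicate 3 (0.0510). Values further from 0 were found with median centring, at -0.22 (limma unadjusted p = 0.00298), with quantile normalization, at -0.15 (0.00703), and without CTL replicate 3, at -0.16 (0.00293). Its direction was the same in all 16.

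GPR160, an orphan G protein-coupled receptor, was the other member with a lower mean in aCT1. Its values were 621, 660 and 667 normalized counts in CTL and 627, 618 and 558 in aCT1. The groups overlapped because CTL replicate 1 lay under aCT1 replicate 1. The log2 fold change was -0.11 (SE 0.057, adjusted p from limma 0.550, unadjusted p = 0.0691). Without aCT1 replicate 3, the lowest sample, it was -0.061. The unadjusted p passed 0.05 without CTL replicate 1 (0.0450) and without aCT1 replicate 1 (0.0491), and also with median centring (0.00773) and quantile normalization (0.0448).

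**Figure D3:**
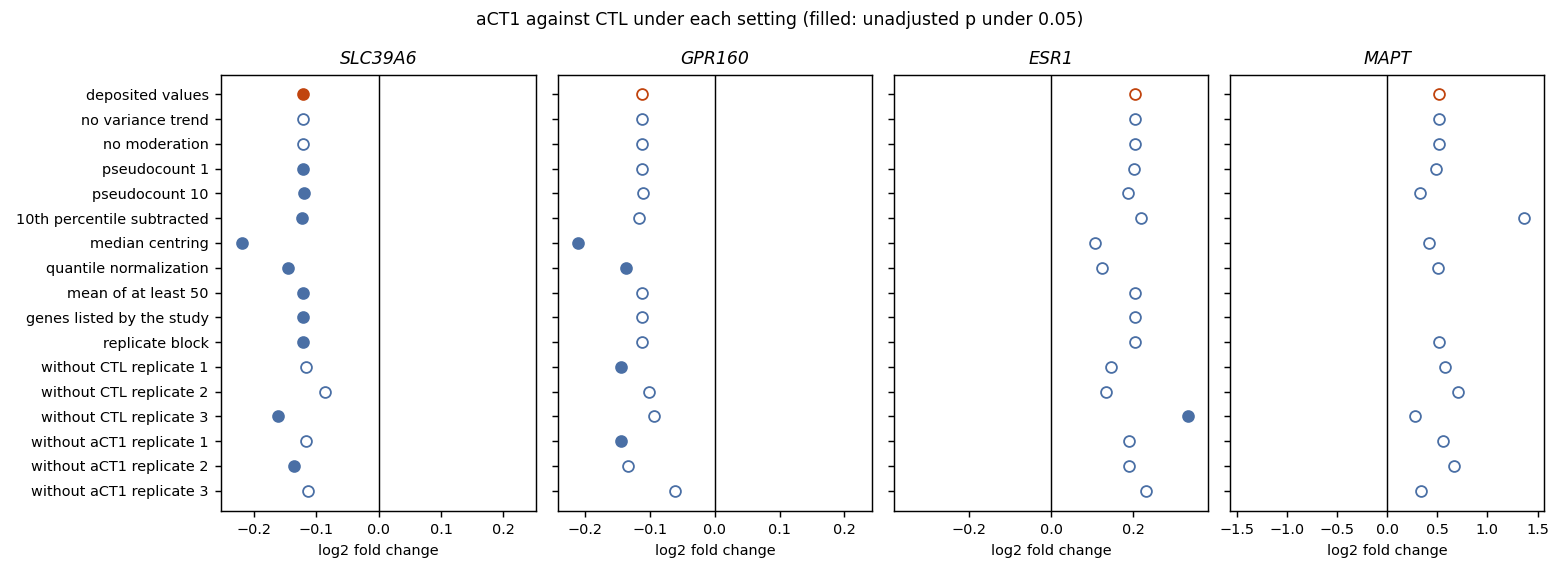
Log2 fold change of aCT1 against CTL for SLC39A6, GPR160, ESR1 and MAPT under the deposited values (red) and each alternative (blue), filled where the unadjusted p is under 0.05. SLC39A6 and GPR160 stay left of 0 and ESR1 and MAPT right of 0 in every setting shown, with ESR1 filled only without CTL replicate 3; MAPT has no point for the 2 settings that drop genes with few counts.

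NAT1, which acetylates arylamine drugs, had 213, 229 and 257 normalized counts in CTL and 252, 261 and 228 in aCT1. The groups overlapped, and the log2 fold change was 0.085 (SE 0.091, adjusted p from limma 0.862). It ranged from 0.022 without CTL replicate 1 to 0.16 without CTL replicate 3, and was -0.013 with median centring. MLPH, which encodes melanophilin, an adaptor for the transport of vesicles on actin, had 971, 986 and 1012 normalized counts in CTL and 990, 1022 and 1024 in aCT1. CTL replicate 3 lay among the aCT1 samples, and the log2 fold change was 0.032 (SE 0.041, adjusted p from limma 0.921). For MLPH the interval of the fold ran from 0.963 to 1.09.

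BAG1, a co-chaperone that binds BCL2 and HSP70, had 1558, 1583 and 1550 normalized counts in CTL and 1556, 1657 and 1650 in aCT1. Replicates 2 and 3 of aCT1 were above all CTL samples and aCT1 replicate 1 was not. The log2 fold change was 0.051 (SE 0.037, adjusted p from limma 0.750). BLVRA, biliverdin reductase A of heme breakdown, had 2031, 2082 and 2171 normalized counts in CTL and 2056, 2227 and 2123 in aCT1. Its groups overlapped, with a log2 fold change of 0.027 (SE 0.039, adjusted p from limma 0.965) and an interval of the fold from 0.962 to 1.08. For MLPH, BAG1 and BLVRA, the interval held no fold over 1.10 in either direction.

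MAPT had both the largest fitted fold and the largest SE of the 10. Its values were 16.6, 19.9 and 11.1 normalized counts in CTL and 21.0, 17.9 and 28.6 in aCT1. The lowest and the highest sample differed 2.59-fold, and aCT1 replicate 2 lay under CTL replicate 2. The log2 fold change was 0.52 (SE 0.31, adjusted p from limma 0.645), against an SE of 0.27 from counting alone. It was 0.28 without CTL replicate 3, 0.33 without aCT1 replicate 3, and 1.36 when the 10th percentile of each sample was subtracted as a background. At levels that immune markers also reached, this value describes few barcodes.

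**Figure D4:**
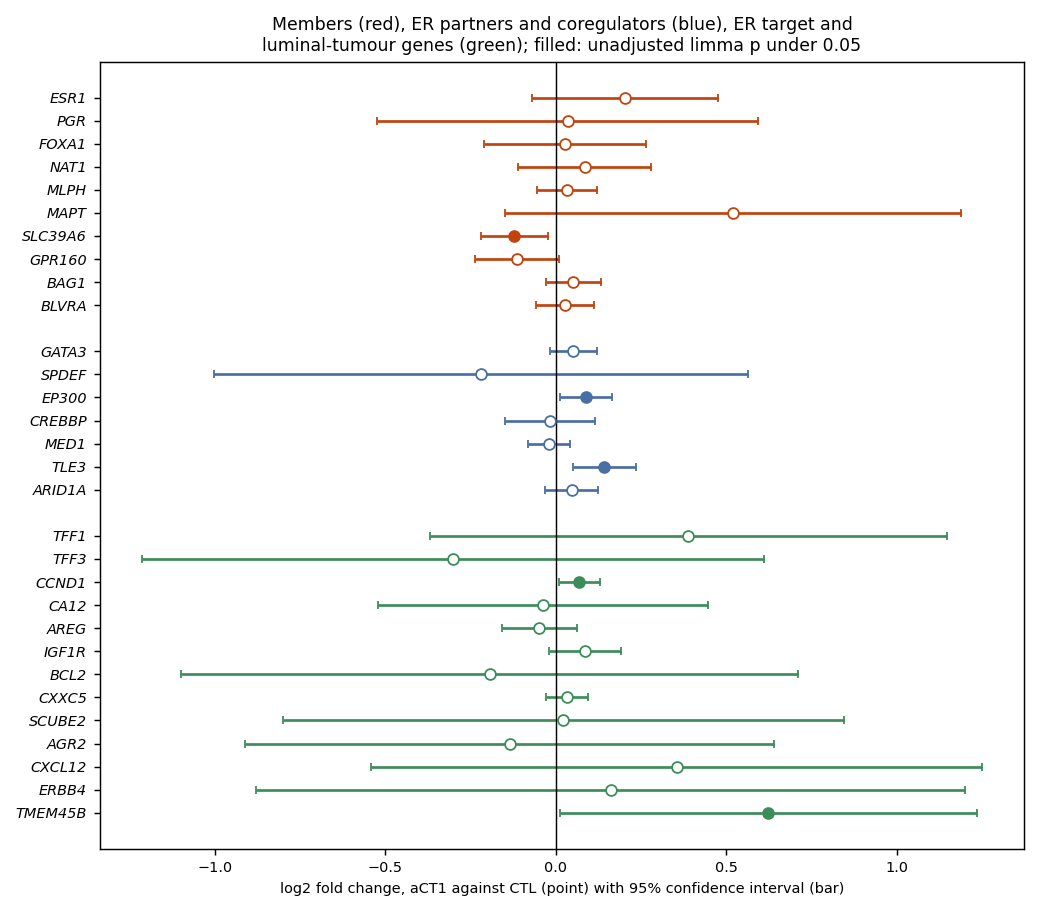
Log2 fold change of aCT1 against CTL with its 95% confidence interval from limma, for the 10 members (red), 7 partners and coregulators of the estrogen receptor (blue) and 13 target or luminal tumor genes (green). Filled points have an unadjusted p under 0.05, which holds for SLC39A6, EP300, TLE3, CCND1 and TMEM45B, and the wide bars belong to genes with few counts, such as MAPT, SPDEF and BCL2.

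The other genes of the estrogen receptor pathway were measured too, and none passed the adjusted threshold. Over all genes, 446 were higher and 312 lower in aCT1, and 6.46% were higher and 2.9% lower at an unadjusted p under 0.05. Of the 18 further genes that the panel annotates as ER signaling and that the study tested, 12 were higher and 6 lower in aCT1, and 2 in each direction were below that p. Their median log2 fold change was 0.016. The log2 fold change of TLE3, a corepressor of the Groucho family, was 0.14 (SE 0.043, adjusted p from limma 0.281), with mean levels of 1088 and 1201 normalized counts in CTL and aCT1. With each sample centred on its median, the value for TLE3 was 0.045. EIF3B, a translation initiation factor subunit, was lower, at -0.084 (limma adjusted p = 0.307), with 8580 normalized counts in CTL and 8090 in aCT1.

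Of 22 partners and coregulators listed, 7 were measured, including TLE3, and the median log2 fold change of the 7 was 0.047. Among them 2 had an unadjusted p under 0.05, both higher in aCT1, where 6.46% of all genes were higher at that p. The acetyltransferase EP300, a coactivator of the receptor, had 1508 ± 40.4 normalized counts in CTL and 1604 ± 13.2 in aCT1 (SD, n = 3), or 0.089 as a log2 fold change (adjusted p from limma 0.380), and under median centring the value was -0.0091. GATA3 had a log2 fold change of 0.052 (limma adjusted p = 0.649). Of 29 target and luminal tumor genes listed, 13 were measured, 8 higher and 5 lower in aCT1, and 2, both higher, were below an unadjusted p of 0.05. Their median log2 fold change was 0.034 and their median absolute log2 fold change 0.135. Only 4 of the 13 had a mean of at least 50 normalized counts. The median absolute value of those 4 was 0.059, where all genes at that level had 0.046. CCND1 had a log2 fold change of 0.070 (limma adjusted p = 0.371), and under median centring -0.028. TMEM45B, a membrane protein of the PAM50 set, had 0.62 (limma adjusted p = 0.508), at 13.9 normalized counts in CTL and 21.5 in aCT1, within the range of the immune markers. Its unadjusted p was over 0.05 in 7 of the 14 alternatives that kept it, including median centring (0.0966), the replicate block (0.0704) and quantile normalization (0.0521).

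Compared with the other subtype genes, 0 of 10 members were higher and 1 lower at an unadjusted p under 0.05, and the counts for the 10 basal-like genes were the same, the lower gene being SFRP1. Over all genes, 6.46% were higher and 2.9% lower at that p, so counts this small do not set these lists apart from other genes. SFRP1, an inhibitor of Wnt signaling, had the smallest p of the table, with 6551 normalized counts in CTL and 5750 in aCT1, for a log2 fold change of -0.19 and an adjusted p from limma of 0.0989. The adjusted p of SFRP1 was under the threshold with the replicate block (0.0418), quantile normalization (0.0190), a mean of at least 50 (0.0205), the genes listed by the study (0.0139) and without CTL replicate 3 (0.00778), and over it in the other 11 alternatives. KRT5 had 0.065 and, among the 4 HER2 genes, GRB7 had 0.037, with limma adjusted p-values of 0.526 and 0.965. Of those 4, 1 was below an unadjusted p of 0.05 and higher in aCT1, the low-count gene TMEM45B, which the target and luminal tumor list also holds. Among the luminal epithelial markers, KRT7 had a log2 fold change of 0.12 (limma adjusted p = 0.189), which fell to 0.020 with median centring, and the surface glycoprotein CD24 -0.20 (limma adjusted p = 0.845). Differences between these lists were not tested.

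The genes whose log2 values followed those of SLC39A6 most closely over the 6 samples, among 425 non-member genes with a mean of at least 50, were the integrin chains ITGB1 (Pearson r 0.975) and ITGA6 (0.966) and the cytokine receptor IL4R (0.949). Each had a lower mean in aCT1, with log2 fold changes of -0.067, -0.11 and -0.10. The genes closest to ESR1 were CYBB, a subunit of the phagocyte oxidase (0.915), the immunoproteasome subunit PSMB10 (0.907) and the collagen chain COL9A3 (0.900). Their log2 fold changes were 0.14, 0.044 and 0.24, with limma unadjusted p-values of 0.416, 0.426 and 0.067. CYBB, at 52.7 normalized counts in CTL and 58.0 in aCT1, lay within the range of the immune and stromal markers. All these correlations are descriptions over 6 points that fall in 2 groups and share normalization, and the highest of 425 values is high by selection.

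CTL replicate 3 bore on several members at once. It was the highest CTL sample for ESR1, PGR, FOXA1, NAT1, MLPH, GPR160 and BLVRA, which is 7 of 10, and the lowest for SLC39A6, MAPT and BAG1. Its total normalized count was the lowest of the 6 samples, while its median normalized count, 167, was above those of CTL replicates 1 and 2, 159 and 157. How many of all 758 genes were highest among CTL samples in replicate 3 was not counted. Without CTL replicate 3, the log2 fold change was 0.33 for ESR1, 0.16 for NAT1, -0.16 for SLC39A6 (limma unadjusted p = 0.00293) and 0.28 for MAPT. Over all genes, 86 then had a limma unadjusted p under 0.05, against 71 with all samples, so the effect of leaving it out was not particular to the members.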

How the data were processed

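RNA of the 6 samples was hybridized by the authors to barcoded probes of the nCounter Breast Cancer 360 panel. In nSolver 4.0 the authors scaled these to housekeeping genes, and they deposited the result as a linear signal (normalized counts) and as log2 values. No background subtraction or alignment is described. Within a sample, deposited linear values were whole multiples of 1 step (100% of values, tolerance 0.01 of a step), with steps of 0.979 to 1.02, which gave the counting errors. Totals were 1437572 to 1494919 barcodes per sample.

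aCT1 was compared with CTL on the deposited log2 values of all 758 genes with limma 3.58.1 in R 4.3.3, moderated with a variance trend, two-sided, with Benjamini-Hochberg adjustment over all genes and a threshold of 0.05. The step was tested on simulated data with changes larger than those of most members, so the detection of changes as small as theirs was not tested. Intervals are 95% intervals of limma, and counting errors cover counting alone. The members and gene lists were chosen with earlier results of these data known. Named are all members, in each list the 2 genes with the smallest p and the highest and lowest marker, and the 3 genes most like ESR1 and SLC39A6; other genes were named after their values were seen. Same-numbered samples deviated from their group means with correlations of 0.059, 0.109 and -0.108 over all genes. For genes with a mean of at least 50 the correlations were 0.078, 0.192 and -0.231. They were low and differed in sign, so numbers were not taken as pairs. Symbols and promoters came from RefSeq on GRCh38.p14. Alternatives were no trend, no moderation, pseudocounts of 1 and 10, subtraction of the 10th percentile, median centring, quantile normalization, a mean of at least 50, the genes listed by the study, the replicate number as a block and each sample left out. One further gene is not reported here.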

Additional observations from a re-analysis of the deposited data

How the results depend on the processing

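Genes below an unadjusted p of 0.05 numbered 71, and between 48 and 93 in the 16 alternatives. The number with an adjusted p under 0.05, 0 in limma, was 6 with quantile normalization and 1 with no variance trend, with a mean of at least 50, with the genes listed by the study and with the replicate block, and 0 to 1 with one sample left out. None of these genes was a luminal member, and SFRP1 was among them in each case but no variance trend, where the gene was CPA3. The number of members with an unadjusted p under 0.05, 1, was 0 with no variance trend, 0 with no moderation, 2 with median centring, 2 with quantile normalization, and 0 to 2 with one sample left out. Of 156 values of members under alternatives, 12 changed direction, in 6 genes. With median centring, which moved the median log2 fold change of all genes from 0.018 to -0.080, the values were -0.063 for PGR, -0.071 for FOXA1, -0.013 for NAT1, -0.065 for MLPH, -0.046 for BAG1 and -0.070 for BLVRA, and, among other genes, -0.0091 for EP300, -0.028 for CCND1, -0.032 for KRT5, -0.061 for GRB7 and -0.053 for PSMB10. With quantile normalization they were -0.0060 for PGR, -0.064 for FOXA1 and -0.00084 for BLVRA. With one sample left out, values ranged from -0.13 to 0.14 for PGR, from -0.0028 to 0.081 for FOXA1, from -0.0033 to 0.054 for BLVRA, from -0.47 to 0.071 for CD24 and from -0.037 to 0.077 for GRB7. Median centring lowers the log2 fold change of every gene by the same amount, so its changes of direction follow from that shift. For quantile normalization and for samples left out, the cause was not tested. With the replicate block, the unadjusted p of SLC39A6 was 0.0190, and the block changed the side of the threshold for no member. Among other genes, it moved the unadjusted p of TMEM45B to 0.0704 and the adjusted p of SFRP1 to 0.0418. A mean of at least 50 and the study's list leave out PGR and MAPT. The edgeR alternative was not run. Depth limits PGR and MAPT, where counting alone gives standard errors of 0.26 and 0.27 on the log2 fold change.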
